A study of Arabidopsis thaliana with 12 samples.

Results

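The ascorbate and glutathione reductases of Arabidopsis comprised 10 genes chosen by name and not by a measured value: the monodehydroascorbate reductases MDAR1, MDAR2, MDAR3, MDAR4 and MDAR6, the dehydroascorbate reductases DHAR1, DHAR2 and DHAR3, and the glutathione reductases GR1 and GR2. Earlier results of these data were known when these genes and the limits below were chosen. All 10 were among the 21882 genes of the expression table. RNA was sequenced from leaf material of catalase2-2 (cat2-2) seedlings, which carry an insertion in CAT2, the main leaf catalase. Seedlings grew for 7 days in liquid medium at 5 plants per well and 16 h of light per day, and the medium was then exchanged for medium with pakerine or with its solvent dimethyl sulfoxide (DMSO). The 4 groups of 3 libraries were Stress + Pakerine (10 μM pakerine and 2 days of photorespiratory stress), Stress (DMSO and the same stress), Pakerine (10 μM pakerine without stress) and DMSO (solvent without stress). Pakerine is a sulfonamide that was selected because it alleviates photorespiratory stress in this mutant. Every group was cat2-2, so no wild type entered any comparison. The groups without stress were harvested 4 days after the medium was exchanged. The stressed groups were harvested 2 days later, from plates that had been sealed and lit for 24 h a day. Stress, age, light period and time in the exchanged medium therefore cannot be told apart. Seedlings of Stress + Pakerine had thus also been in pakerine 2 days longer than those of Pakerine, which enters every comparison of these groups. For 6 of the 12 samples the titles and the other labels named different treatments, and the groups were read from the column headings of the table.

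The table gives the mean of each group in CPM (read counts scaled to the size of the library), with no value per library, and all levels below are those authors' means. Library sizes were read from the steps of the low values and lay between 28472236 and 33512708 counted reads. A 95% counting interval follows each ratio where it is needed. It covers counting error only, and the spread between libraries is unknown for 9 of the 10 genes. Those 9 therefore have no test, and a gene is described as past 1.5-fold where the ratio of its means was at least 1.5 or its inverse. CAT2 stood at 108 CPM in Stress + Pakerine and 76.1 CPM in Stress, and at 37.2 CPM in Pakerine against 19.5 CPM in DMSO. One value per gene does not separate reads before and after the insertion. Of the catalases that are not mutated, CAT3 had between 3181 CPM in Stress + Pakerine and 3769 CPM in DMSO. CAT1 had between 87.9 CPM in Pakerine and 117 CPM in Stress. As leaf markers, 6 genes of photosynthesis and photorespiration summed to 18971 CPM in Stress + Pakerine, 18024 in Stress, 19816 in Pakerine and 19259 in DMSO. The 12 root marker genes summed to 137, 31.6, 163 and 51.8 CPM in the same order, and none of them was listed at 0. These sums do not show from which organs the RNA came. The leaf sum also hides single genes past 1.5-fold. In Stress against DMSO 1 leaf marker was higher and 1 lower, and likewise in Pakerine against DMSO. In Stress + Pakerine against Pakerine 2 were higher and 0 lower, and against Stress 1 was higher and 0 lower. The shares over all genes are given with each comparison below.

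The 10 enzymes close the ascorbate-glutathione cycle, by which plants remove hydrogen peroxide without catalase. Ascorbate peroxidases spend ascorbate on hydrogen peroxide and leave monodehydroascorbate, which MDARs turn back into ascorbate with NADH or NADPH. Monodehydroascorbate that escapes becomes dehydroascorbate, which DHARs reduce with glutathione, and GRs then reduce the oxidised glutathione with NADPH. In cat2 mutants photorespiratory hydrogen peroxide is no longer removed at its normal rate in peroxisomes, and such plants are known for the oxidation of their glutathione pool. The cycle runs in several compartments. MDAR1 lies in the peroxisome matrix and the cytosol, MDAR4 in the peroxisome membrane, and MDAR2 and MDAR3 in the cytosol. MDAR6 encodes the plastid enzyme and, from another start, a mitochondrial form. DHAR1 and DHAR2 are mainly cytosolic and DHAR3 is plastidic. GR1 serves the cytosol and peroxisomes, and GR2 serves plastids and mitochondria.

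On the RefSeq annotation of TAIR10.1, MDAR1 (AT3G52880) lies at chr3:19601167-19604597, MDAR2 (AT5G03630) at chr5:922048-924728, MDAR3 (AT3G09940) at chr3:3056375-3059244 and MDAR4 (AT3G27820) at chr3:10315010-10318154. MDAR6 (AT1G63940) lies at chr1:23729875-23733974, DHAR1 (AT1G19570) at chr1:6773302-6774523, DHAR2 (AT1G75270) at chr1:28250075-28251469 and DHAR3 (AT5G16710) at chr5:5483260-5485185. GR1 (AT3G24170) lies at chr3:8729354-8734624 and GR2 (AT3G54660) at chr3:20229637-20233211. MDAR4, MDAR6 and DHAR3 are on the plus strand and the other 7 on the minus strand. Counts were per gene over whole transcripts, so the plastid and mitochondrial products of MDAR6, which has 4 annotated transcripts, could not be separated. GR1 shares 74 bases with a gene on the opposite strand and 14 bases with its upstream neighbour, out of an extent of 5271 bases. For DHAR1, 74 of its 690 stretches of 75 bases, the read length, also occur elsewhere in the genome, in AT1G19540 and AT1G19550. AT1G19540 stood between 9.43 CPM in Stress + Pakerine and 22.6 CPM in DMSO, and AT1G19550 between 0.235 CPM in Stress + Pakerine and 0.605 CPM in DMSO. How reads that match more than 1 place were treated is not given in the sources used here. Some DHAR1 reads may therefore be left out or counted for another gene. The other 9 genes held no such stretch.

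The sequence just upstream is shown for the genes whose means differed most between groups, MDAR2, MDAR3, DHAR2 and MDAR6, as far as it is clear of neighbouring genes. GR1, which also differed, is left out because its neighbour covers that stretch. The sequences are RefSeq's for TAIR10.1 and end at the base before the annotated start. They cover chr5:924729-924978 and chr3:3059245-3059494 on the minus strand for MDAR2 and MDAR3, chr1:28251470-28251625 on the minus strand for DHAR2 and chr1:23729625-23729874 on the plus strand for MDAR6. Capitals mark the motifs CACGTG (the G-box) and TTGAC (the core bound by WRKY factors) on either strand, so that TTGAC on the other strand reads GTCAA.
MDAR2 upstream: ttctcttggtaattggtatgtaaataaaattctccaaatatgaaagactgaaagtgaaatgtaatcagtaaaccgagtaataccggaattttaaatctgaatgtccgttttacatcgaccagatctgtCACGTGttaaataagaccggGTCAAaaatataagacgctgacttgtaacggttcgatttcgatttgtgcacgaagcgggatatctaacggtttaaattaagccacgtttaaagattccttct
MDAR3 upstream: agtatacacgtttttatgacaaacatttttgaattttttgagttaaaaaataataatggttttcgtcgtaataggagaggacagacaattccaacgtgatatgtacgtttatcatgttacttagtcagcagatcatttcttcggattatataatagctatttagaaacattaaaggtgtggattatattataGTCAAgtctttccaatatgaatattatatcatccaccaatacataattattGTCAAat
DHAR2 upstream: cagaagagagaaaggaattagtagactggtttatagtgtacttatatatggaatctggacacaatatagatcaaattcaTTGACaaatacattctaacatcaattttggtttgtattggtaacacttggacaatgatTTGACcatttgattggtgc
MDAR6 upstream: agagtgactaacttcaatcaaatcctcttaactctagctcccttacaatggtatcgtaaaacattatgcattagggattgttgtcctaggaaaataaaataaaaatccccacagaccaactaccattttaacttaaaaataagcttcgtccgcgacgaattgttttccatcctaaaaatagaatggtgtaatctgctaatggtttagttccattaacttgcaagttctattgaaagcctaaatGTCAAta
MDAR2 held 1 G-box 122 bases before its start and 1 TTGAC 102 bases before it. MDAR3 held TTGAC at 58 and 7 bases before its start, DHAR2 at 77 and 19 bases, and MDAR6 at 7 bases. MDAR3 has 2 annotated transcript starts and MDAR6 has 3, and these distances are to the outermost. Over windows of 250 bases, neighbouring genes included, TTGAC occurred in 7 of the 10 members and in 44.9% of 27443 promoters. CACGTG occurred in 3 members (MDAR2, DHAR1 and DHAR3) and in 6.49% of promoters. TGACG, the core bound by TGA factors, occurred in 1 member (DHAR1) and in 18.6% of promoters, and the mitochondrial dysfunction motif in 0 members and 1.75% of promoters. CACGTG reads the same on both strands, and none of these 4 motifs contains another. The matches are a description of these letters only.

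**Figure D1:**
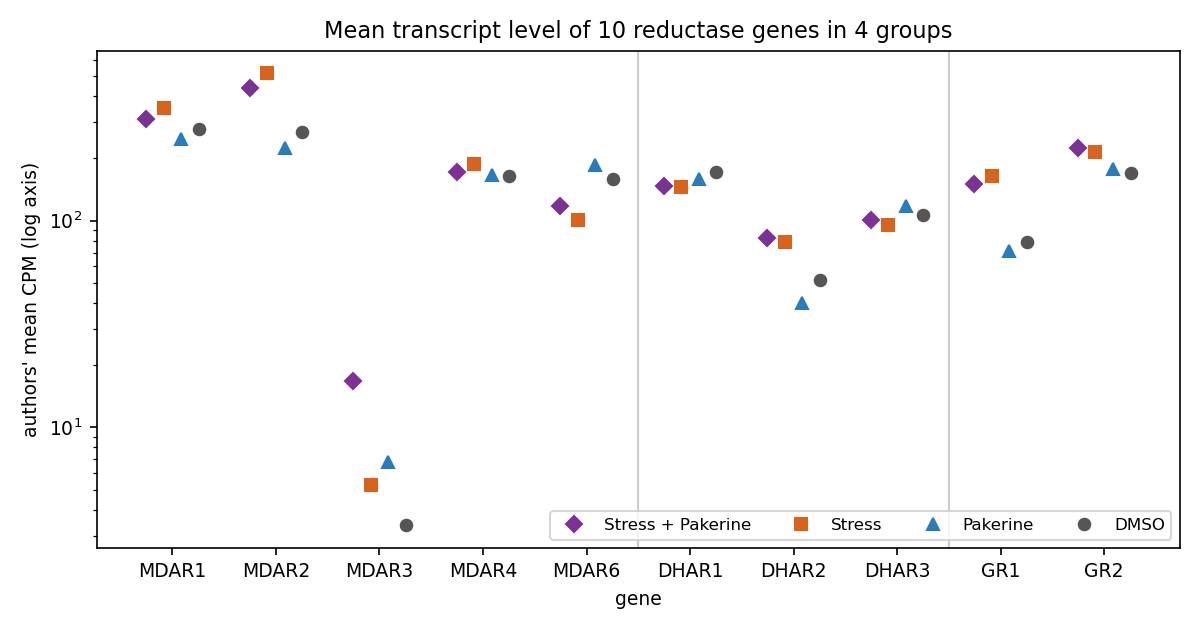
Authors' mean CPM of the 10 reductase genes (logarithmic vertical axis) in the groups Stress + Pakerine, Stress, Pakerine and DMSO, 1 symbol per group mean. MDAR2 and GR1 lie higher in both stressed groups than in both unstressed groups, MDAR6 lies lower, and MDAR3 is the lowest gene in every group.

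The comparison of Stress with DMSO asks what photorespiratory stress did to the recycling enzymes in seedlings without pakerine. MDAR2, DHAR2 and GR1, which have cytosolic products, stood higher in Stress, and MDAR6, with plastid and mitochondrial products, stood lower. DHAR1, whose product is also mainly cytosolic, did not stand higher. GR2, with plastid and mitochondrial products like MDAR6, stood higher (ratio 1.26), close to the peroxisomal and cytosolic MDAR1 (1.27), both within 1.5-fold. Past 1.5-fold, 4 of 10 members were higher and 1 was lower, where 11.9% of the 21882 genes tested were higher and 11.8% lower. The remaining one of the higher genes was MDAR3, whose library values overlapped between Stress and DMSO and are given further on. The median log2 ratio of the 10 was 0.33, and that of all genes was -0.06 (over those whose mean reached 1 CPM in each group, here and below).

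GR1, which regenerates glutathione in the cytosol and peroxisomes, was at 163 CPM in Stress and 78.9 CPM in DMSO, a ratio of 2.07 (counting interval 2.01 to 2.13). MDAR2 was at 515 CPM in Stress and 269 CPM in DMSO, a ratio of 1.91 (1.88 to 1.94). DHAR2 was at 78.4 CPM in Stress and 51.9 CPM in DMSO, a ratio of 1.51 (1.46 to 1.57). For DHAR2 the interval reaches below 1.5, and it was the member just inside that limit, with MDAR1 at 1.27 just outside. MDAR6 stood at 101 CPM in Stress and 159.8 CPM in DMSO, a ratio of 0.632 (0.616 to 0.648), and DHAR1 at 0.848 was the next in that direction.

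The remaining genes lay closer to 1. MDAR1 was at 349.7 CPM in Stress and 276 CPM in DMSO (ratio 1.27), and GR2, the organellar glutathione reductase, at 214 CPM in Stress and 171 CPM in DMSO (ratio 1.26). MDAR4, whose product sits in the peroxisome membrane next to the site where photorespiration makes hydrogen peroxide, was at 188 CPM in Stress and 163 CPM in DMSO (ratio 1.15). Ratios below 1 were found for 2 dehydroascorbate reductases, DHAR1 with 146 CPM in Stress and 172 CPM in DMSO (0.848) and the plastidic DHAR3 with 95.7 CPM in Stress and 106 CPM in DMSO (0.899). Of the members with a plastid product, MDAR6 and DHAR3 thus had lower means in Stress and GR2 a higher one.

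Stress + Pakerine against Pakerine repeats the question in seedlings given pakerine, and shares no group with the comparison above. The same 4 members were past 1.5-fold higher and the same 1 lower, beside 11.3% of all genes higher and 8.13% lower. GR1 was at 150.5 CPM in Stress + Pakerine and 71.6 CPM in Pakerine (log2 ratio 1.07, counting interval 1.03 to 1.11). MDAR2 was at 439.6 CPM in Stress + Pakerine and 224 CPM in Pakerine (ratio 1.96, 1.93 to 1.99). The ratio of MDAR6 was again 0.632 (0.617 to 0.648), from 117 CPM in Stress + Pakerine and 185 CPM in Pakerine. These 3 genes had nearly the same stress ratio with pakerine as without it, the log2 ratios differing by at most 0.03.

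DHAR2, the other cytosolic dehydroascorbate reductase beside DHAR1, stood at 82.7 CPM in Stress + Pakerine and 39.9 CPM in Pakerine, a ratio of 2.07 (2.00 to 2.16). That is above its ratio of 1.51 without pakerine, a difference of 0.46 on the log2 scale or 1.37-fold. The members within 1.5-fold were MDAR1 (ratio 1.26), GR2 (1.27), MDAR4 (1.03), DHAR1 (0.930) and DHAR3 (0.856). MDAR4 thus stood nearer to 1 than its ratio of 1.15 without pakerine. The median log2 ratio over the 10 was 0.34, and over all genes -0.04.

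**Figure D2:**
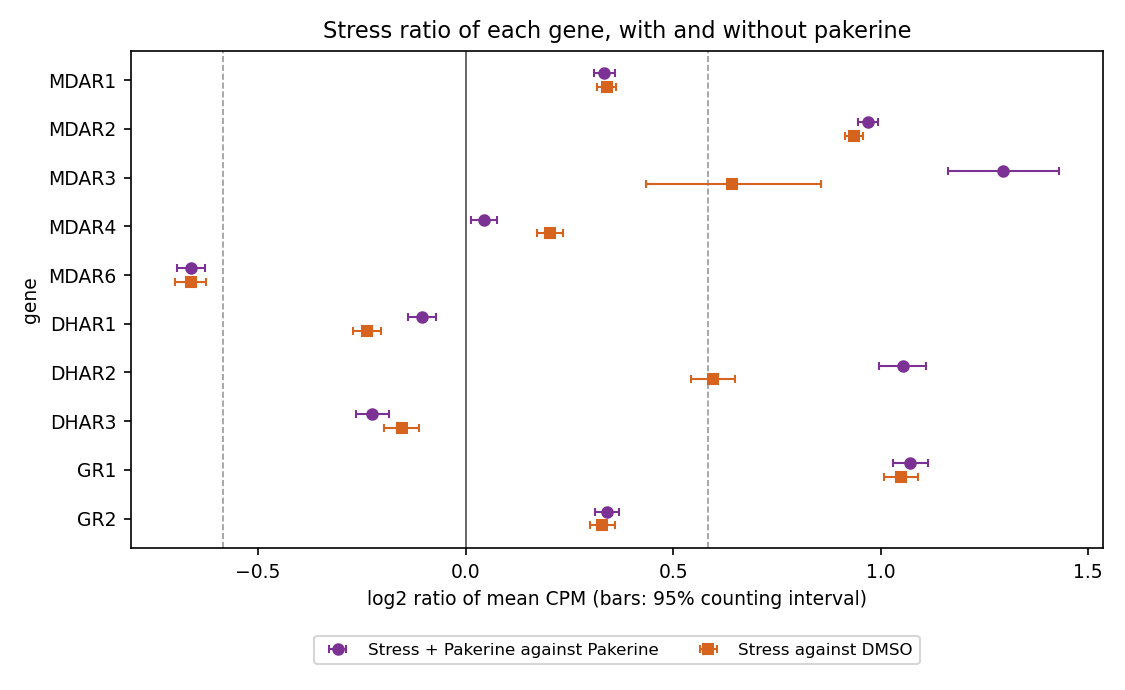
The log2 ratio of mean CPM under stress for each gene, as Stress + Pakerine against Pakerine (circles) and Stress against DMSO (squares), with bars for the 95% counting interval and dashed lines at 1.5-fold. The paired symbols nearly coincide for MDAR1, MDAR2, MDAR6, GR1 and GR2, while MDAR3 and DHAR2 lie further right with pakerine.

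As levels of different genes can be compared only per length, CPM were divided by the length of the longest coding sequence. Reads were counted over whole transcripts, so untranslated parts enter the CPM but not this length. The shares and orders per kilobase are therefore approximate. Per kilobase, MDAR2 made up 43.8% of the 5 MDAR transcripts in Stress + Pakerine and 29.0% in Pakerine, and 46.7% in Stress and 33.0% in DMSO. MDAR6 made up 10.3% in Stress + Pakerine and 21.2% in Pakerine, and 8.07% in Stress and 17.2% in DMSO. MDAR1 lay between 29.0% and 31.6% in the 4 groups. In Stress, MDAR2 was the highest of all 10 genes at 394 CPM per kilobase, followed by MDAR1 at 249.6 and DHAR1 at 227. In DMSO the order at the top was DHAR1 at 268 CPM per kilobase, MDAR2 at 206 and MDAR1 at 197. Whether neighbours in these orders differ beyond the spread of the libraries is unknown.

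The class totals combine these movements. The summed mean of the 5 MDAR genes was 1159 CPM in Stress and 872 CPM in DMSO (ratio 1.33), and 1056 CPM in Stress + Pakerine and 829 CPM in Pakerine (ratio 1.27). The GR sum was 378 CPM in Stress and 249.6 CPM in DMSO, and 375 CPM in Stress + Pakerine and 249 CPM in Pakerine, a ratio of 1.51 both times. The DHAR sum was nearly level, at 320.1 CPM in Stress and 330.4 CPM in DMSO (ratio 0.969) and at 330.5 CPM in Stress + Pakerine and 316 CPM in Pakerine (ratio 1.05). Within it DHAR2 held 25.8% per kilobase in Stress and 16.6% in DMSO, and 26.4% in Stress + Pakerine and 13.5% in Pakerine. Within the GR pair, GR1 held 46.3% per kilobase in Stress and 34.4% in DMSO, and 43.1% in Stress + Pakerine and 31.4% in Pakerine. GR2 was the more abundant of the pair per length in every group.

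**Figure D3:**
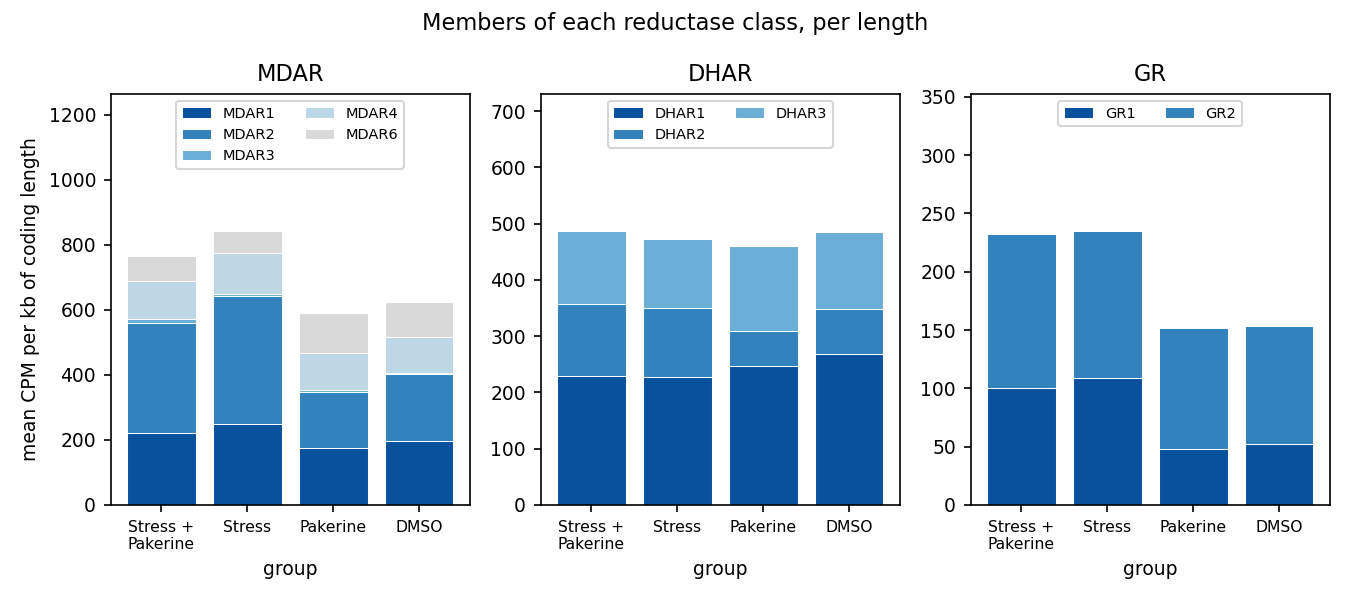
Mean CPM per kilobase of coding sequence, stacked by gene, for the MDAR, DHAR and GR classes (vertical axis from 0, a separate scale for each class) in the 4 groups. The MDAR and GR columns are taller in the stressed groups, mainly by MDAR2 and GR1, and the DHAR columns are of nearly equal height with a larger DHAR2 segment under stress.

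Pakerine against DMSO asks what the compound did without stress. One gene was past 1.5-fold higher, MDAR3, and 0 of 10 were past it lower, beside 10.6% of all genes higher and 3.8% lower. This comparison shares the DMSO group with Stress against DMSO. The other 9 members lay between 0.768 and 1.16 times the DMSO mean, DHAR2 being the lowest (39.9 CPM in Pakerine and 51.9 CPM in DMSO, counting interval of the ratio 0.736 to 0.802) and MDAR6 the highest (185 CPM in Pakerine and 159.8 CPM in DMSO). MDAR2 was at 224 CPM in Pakerine and 269 CPM in DMSO (ratio 0.833), and MDAR1 at 247 CPM in Pakerine and 276 CPM in DMSO (0.893). For MDAR4 the counting interval of 0.991 to 1.04 includes 1, with 166 CPM in Pakerine and 163 CPM in DMSO. The median log2 ratio of the 10 was -0.05, and that of all genes -0.03.

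Stress + Pakerine against Stress asks the same under stress, and shares no group with Pakerine against DMSO. Again 1 gene, MDAR3, was past 1.5-fold higher and 0 lower, beside 11.3% of all genes higher and 2.28% lower. The other 9 had ratios of 0.853 to 1.16, MDAR2 the lowest with 439.6 CPM in Stress + Pakerine and 515 CPM in Stress, and MDAR6 the highest with 117 CPM in Stress + Pakerine and 101 CPM in Stress. The pakerine ratios, Stress + Pakerine against Stress first and Pakerine against DMSO second, were close for MDAR1 (0.890 and 0.893), MDAR2 (0.853 and 0.833), MDAR6 (1.16 both times), GR1 (0.921 and 0.907) and GR2 (1.05 and 1.04). For DHAR2 the ratio was 1.06 with stress (1.02 to 1.09) and 0.768 without it. Over the 10 members the median log2 ratio was 0.04, and over all genes 0.00. The GR sum was nearly the same with pakerine as with solvent, both with stress (ratio 0.992) and without it (0.997).

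**Figure D4:**
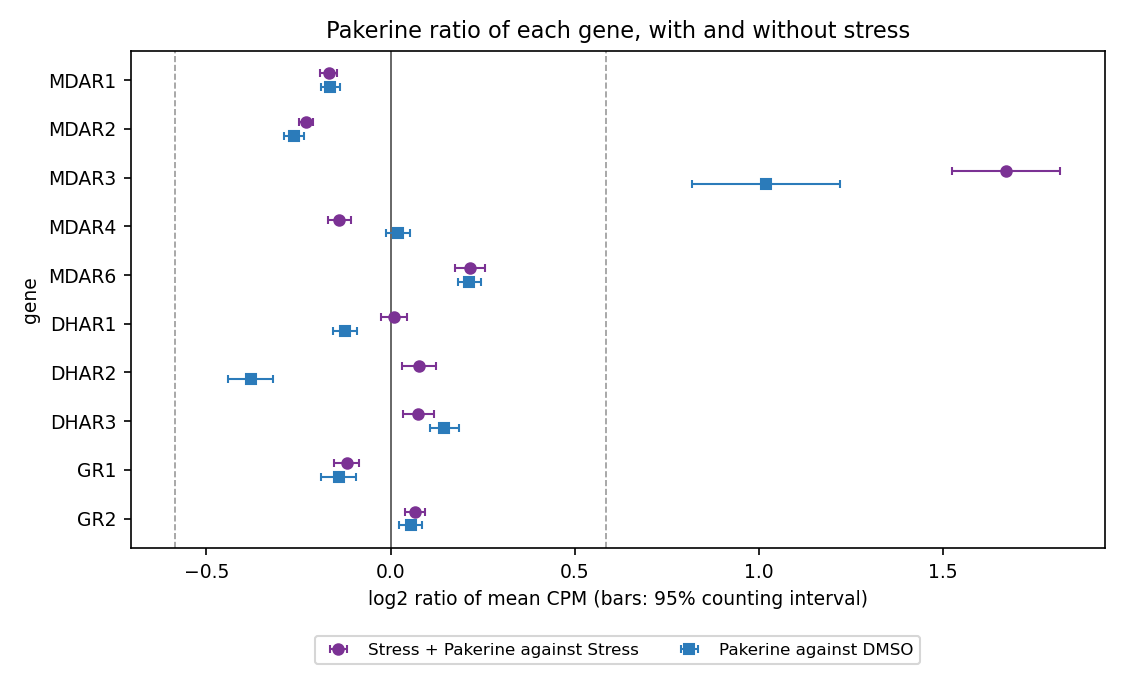
The log2 ratio of mean CPM with pakerine for each gene, as Stress + Pakerine against Stress (circles) and Pakerine against DMSO (squares), with bars for the 95% counting interval and dashed lines at 1.5-fold. MDAR3 alone lies past the dashed line, at 1.67 and 1.02, and the other 9 genes lie within it.

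MDAR3 was the member with the lowest level in every group, per kilobase as well, and the widest range over the 4 groups, 4.97-fold between Stress + Pakerine and DMSO. Its mean was 16.7 CPM in Stress + Pakerine and 5.26 CPM in Stress, and 6.82 CPM in Pakerine against 3.37 CPM in DMSO. Even at its highest it made up 1.65% of MDAR transcripts per kilobase. Because its reads are few, the whole numbers of reads that give each group mean could be solved, with 1 solution in each group within 90% of the mean. The libraries held 19.8, 15.2 and 15.2 CPM in Stress + Pakerine, 3.52, 5.91 and 6.33 CPM in Stress, 5.00, 8.00 and 7.46 CPM in Pakerine, and 5.97, 1.21 and 2.92 CPM in DMSO, each group in order of library size. The Stress + Pakerine libraries all lay above the other 9, and the Stress, Pakerine and DMSO ranges overlapped.

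Stress + Pakerine exceeded Stress by 3.18-fold (counting interval 2.87 to 3.53) and Pakerine by 2.45-fold (2.24 to 2.69). The exact two-sided permutation test over the libraries gave p = 0.1 for both, and also for Stress + Pakerine against DMSO. That is the smallest p that 3 against 3 libraries allow, so 0.05 could not be reached. After adjustment of the exact permutation p over the 5 comparisons made, the Benjamini-Hochberg adjusted p was 0.167 for each of them. Pakerine against DMSO, with a ratio of 2.02, gave an exact permutation p of 0.2 (adjusted 0.25). Stress against DMSO, with a ratio of 1.56, gave an exact permutation p of 0.3 (adjusted 0.3). In both of these comparisons the library ranges overlapped, and a design of this size cannot settle either difference.

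The ratio of MDAR3 in Stress against DMSO depended on single libraries. Without the DMSO library at 5.97 CPM it was 2.54, and without that at 1.21 CPM it was 1.18. It also fell short of 1.5-fold without the Stress library at 5.91 CPM (1.46), without the DMSO library at 2.92 CPM (1.46), or without the Stress library at 6.33 CPM (log2 ratio 0.49). The ratio of Pakerine against DMSO was 1.53 to 3.30 when each library was left out in turn, with 3.30 reached without the DMSO library at 5.97 CPM. The ratios of Stress + Pakerine were steadier, 2.16 to 2.68 against Pakerine and 2.73 to 3.54 against Stress.

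**Figure D5:**
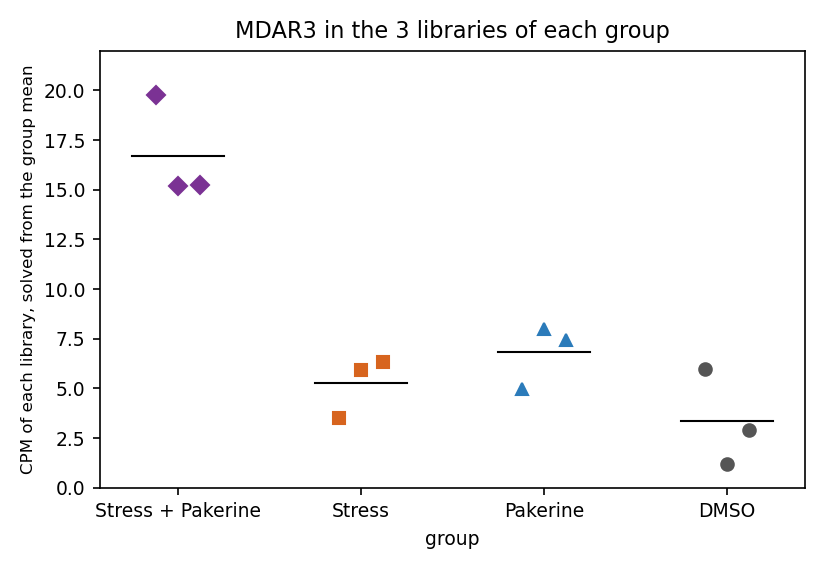
MDAR3 in CPM (vertical axis from 0) in each of the 3 libraries per group, as solved from the group means, with a line at the mean. The Stress + Pakerine libraries at 15.2 to 19.8 CPM lie above all others, and the 3 DMSO libraries spread between 1.21 and 5.97 CPM.

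With all 4 groups it can also be asked whether the stress ratio differs with pakerine. The difference of the log2 stress ratios, with pakerine minus without, was past 1.5-fold in 1 of 10 members, MDAR3 (0.65, or 1.57-fold), and in 0 in the other direction, beside 6.72% and 3.88% of 21856 genes. For MDAR3 this difference rests on single libraries. Without the DMSO library at 5.97 CPM it was -0.05, the other direction, and without that at 1.21 CPM it was 1.05. It was also short of 1.5-fold, at 0.43 to 0.51, without the Stress library at 3.52 CPM, the Pakerine library at 5.00 CPM or the Stress + Pakerine library at 19.8 CPM. DHAR2 came next with 0.46, then MDAR4 with -0.16 and DHAR1 with 0.13. The remaining 6 lay between -0.07 and 0.03.

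Root marker genes moved with pakerine as well. Of the 12, 10 were past 1.5-fold higher and 2 lower in Pakerine against DMSO, and 10 were higher and 0 lower in Stress + Pakerine against Stress. Their sum was 163 CPM in Pakerine and 51.8 CPM in DMSO, and 137 CPM in Stress + Pakerine and 31.6 CPM in Stress. In Stress + Pakerine against Pakerine, where MDAR3 was 2.45 times higher, 2 root markers were past 1.5-fold higher and 0 lower, and the sum was 137 CPM in Stress + Pakerine and 163 CPM in Pakerine. In Stress against DMSO 1 root marker was higher and 9 were lower. That 1 was NRT2.1, with at most 0.231 CPM in any group. Of the 9 root markers with at least 1 CPM on average, 8 were higher and 1 lower in Pakerine against DMSO. In Stress + Pakerine 8 were higher and 0 lower against Stress, and 1 was higher and 0 lower against Pakerine. In Stress against DMSO 0 were higher and 7 lower. For the counts over all 12, the shares over all genes are those given with each comparison above. With at least 1 CPM on average, 6.11% of 18658 genes were higher and 2.12% lower in Pakerine against DMSO. These shares were 6.53% and 1.07% in Stress + Pakerine against Stress, and 9.42% and 6.12% in Stress + Pakerine against Pakerine. In Stress against DMSO they were 9.78% and 9.15%. The part of root tissue in the values of MDAR3 or any other member was not tested. In bulk material, fewer cells of a type and less RNA per cell cannot be told apart.

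The partners of the reductases were counted from lists of named genes. For all of these lists, the shares over all genes past 1.5-fold were 11.9% higher and 11.8% lower in Stress against DMSO. They were 11.3% and 8.13% in Stress + Pakerine against Pakerine, 10.6% and 3.8% in Pakerine against DMSO, and 11.3% and 2.28% in Stress + Pakerine against Stress. Of 8 ascorbate peroxidases, which make the substrate of the MDARs, 1 was past 1.5-fold higher and 0 lower in Stress against DMSO. That gene was APX2, with at most 0.192 CPM in any group. APX1, the main cytosolic enzyme, was at 3211 CPM in Stress and 2164 CPM in DMSO (ratio 1.48), just short of the limit. In Stress + Pakerine against Pakerine 3 were past it, namely APX1, with 3141 CPM in Stress + Pakerine and 1984 CPM in Pakerine (ratio 1.58), sAPX, an organellar enzyme, with 231 CPM in Stress + Pakerine and 138 CPM in Pakerine, and APX2. The median log2 ratio of the 8 was 0.19 without pakerine and -0.01 with it. In Pakerine against DMSO, APX2 and APX5 (1.38 CPM in Pakerine and 0.802 CPM in DMSO) were past 1.5-fold higher and 0 lower, and in Stress + Pakerine against Stress 0 were higher and APX2 lower.

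Of 10 genes of ascorbate synthesis, 2 were past 1.5-fold higher and 0 lower in both stress comparisons. VTC2, the GDP-galactose phosphorylase that sets the rate of the pathway, was at 498 CPM in Stress and 150.02 CPM in DMSO (ratio 3.32), and at 529 CPM in Stress + Pakerine and 171 CPM in Pakerine (ratio 3.09). PMI2, a phosphomannose isomerase at its start, was at 17.5 CPM in Stress and 11.0 CPM in DMSO, and at 11.5 CPM in Stress + Pakerine and 6.71 CPM in Pakerine. PMI2 was also the 1 gene of the list past 1.5-fold lower with pakerine, in both pakerine comparisons. Of 3 ascorbate oxidase genes, 1 was higher in both stress comparisons, AAO1, with 5.61 CPM in Stress and 1.41 CPM in DMSO. Of the 2 glutathione synthesis genes, none was past 1.5-fold in either stress comparison, GSH1 being at 656 CPM in Stress and 472 CPM in DMSO.

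Of 8 genes of the glutathione peroxidase family, 2 were past 1.5-fold higher and 0 lower in both stress comparisons. GPX7, which encodes a plastid enzyme, was at 6.78 CPM in Stress and 0.506 CPM in DMSO (ratio 13.4), and at 7.48 CPM in Stress + Pakerine and 0.443 CPM in Pakerine (ratio 16.9), and the other was GPX4, at no more than 0.536 CPM. Of 7 genes for cytosolic and plastidic NADPH supply, on which the GRs depend, NADP-ME2 was higher, with 550.5 CPM in Stress and 316 CPM in DMSO (ratio 1.74), and with 623 CPM in Stress + Pakerine and 303 CPM in Pakerine (ratio 2.06). G6PD6, a cytosolic glucose-6-phosphate dehydrogenase, joined it in the second comparison with 61.7 CPM in Stress + Pakerine and 39.3 CPM in Pakerine. None of the 3 NADPH-thioredoxin reductase genes was past 1.5-fold in any of these comparisons. With pakerine, no gene of the oxidase, glutathione synthesis, peroxidase (GPX), NADPH or thioredoxin reductase lists was past 1.5-fold.

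The genes whose pattern over the 4 group means was most like that of MDAR3 were taken from 12667 genes with at least 10 CPM on average, by the smallest root mean square difference between centred log2 means. They were AT4G11290 (0.18), XTH19 (0.20), a xyloglucan endotransglucosylase of the cell wall, and TT4 (0.25), the chalcone synthase of flavonoid synthesis. AT4G11290 was at 31.8 CPM in Stress + Pakerine and 13.6 CPM in Stress, and at 13.8 CPM in Pakerine against 6.52 CPM in DMSO. With 4 means per gene this is a description only.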

How the data were processed

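Total RNA from leaf material (100 mg per sample) was sequenced as 75-base single-end reads. Per the labels and the study's methods, the authors trimmed adapters (Trim Galore 0.3.3), mapped the reads to TAIR10 (TopHat2 2.1.0), obtained a count for each gene (featureCounts, Subread 1.4.6) and removed genes with low counts. The deposited table gives the mean CPM of each group. It also holds the authors' own fold changes, p-values and calls, which were not used. Columns of library values not used numbered 0. Whether strand was used in counting is not given in the sources used here. The heading for stress was an abbreviation, read here as photorespiratory stress.

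From the CPM, ratios of means, class sums and exact binomial counting intervals (95%) were computed in Python 3.11.15 (scipy 1.17.1, pandas 2.3.3, numpy 2.4.6) and checked on simulated data. Low values (below 0.12 CPM) are sums of whole reads, which gave the library sizes, and 100% of them were explained. Of 76, 72, 73 and 70 genes checked at 1 to 4 CPM in Stress + Pakerine, Stress, Pakerine and DMSO, 75, 72, 73 and 70 had whole reads that gave the deposited mean. MDAR3 lay above 4 CPM in Stress, Pakerine and Stress + Pakerine, levels that this check did not reach. Only MDAR3 had a single solution in each group, so the planned limma fit was not run. The plan held no other test, and the permutation test of MDAR3 was added to it. Genes named outside the 10 members had the largest ratios of their lists, at most 3 per list and comparison, APX2 and GPX4 being named beside the counts. Members, lists and limits were chosen with earlier results of these data known. The alternatives tried were a 2-fold limit, centring on the median of all genes, a pseudocount of 0.5 CPM, a minimum of 1 CPM and leaving out each library.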

Additional observations from a re-analysis of the deposited data

How the results depend on the processing

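With a 2-fold limit, 1 member (GR1) stayed past it higher and 0 lower in Stress against DMSO, 3 higher and 0 lower in Stress + Pakerine against Pakerine, and 0 in the difference of the stress ratios. MDAR3 stayed past it in both pakerine comparisons. Past 2-fold, 5.94% of all genes were higher and 4.07% lower in Stress against DMSO. These shares were 5.84% and 2.20% in Stress + Pakerine against Pakerine, and 6.23% and 1.43% in Pakerine against DMSO. They were 6.52% and 0.654% in Stress + Pakerine against Stress, and 2.76% and 1.48% in the difference of the stress ratios. Centring on the median of all genes, which moved ratios by at most 0.06 on the log2 scale, left each count of members as it was, and 0 of 40 member ratios turned their sign. Of all genes, 13.3% were then higher and 10.0% lower in Stress against DMSO. These shares were 12.2% and 7.18% in Stress + Pakerine against Pakerine, and 11.1% and 3.52% in Pakerine against DMSO. They were 11.3% and 2.29% in Stress + Pakerine against Stress, and 6.29% and 4.17% in the difference of the stress ratios. With 0.5 CPM added to both means, 3 members were past 1.5-fold higher in Stress against DMSO, MDAR3 no longer among them, and the other counts of members were as before. Of all genes, 8.51% were then higher and 6.70% lower in Stress against DMSO. These shares were 8.42% and 4.61% in Stress + Pakerine against Pakerine, and 6.20% and 1.48% in Pakerine against DMSO. They were 6.64% and 0.772% in Stress + Pakerine against Stress, and 2.41% and 1.05% in the difference of the stress ratios. Leaving out each library gave MDAR3 log2 ratios of 0.24 to 1.35 for Stress against DMSO, 1.11 to 1.42 for Stress + Pakerine against Pakerine, 0.62 to 1.72 for Pakerine against DMSO, 1.45 to 1.83 for Stress + Pakerine against Stress, and -0.053 to 1.05 for the difference of the stress ratios, which turned its sign without the DMSO library at 5.97 CPM. The cause was not tested. Over all genes the counts past 1.5-fold, higher and lower, depended on the limit and on the low values. They were 2600 and 2579 in Stress against DMSO, 2483 and 1778 in Stress + Pakerine against Pakerine, 2327 and 831 in Pakerine against DMSO, 2468 and 499 in Stress + Pakerine against Stress, and 1468 and 849 in the difference. At 2-fold they were 1300 and 890, 1279 and 481, 1363 and 313, 1427 and 143, and 604 and 324 in the same order. With at least 1 CPM on average they were 1824 and 1707, 1757 and 1141, 1140 and 395, 1218 and 199, and 656 and 268. No paired analysis was possible because the table holds group means, and the MDAR3 library values solved from them carry no replicate number. The limma fit and its paired form were not run, as reads per library could be solved for 1 of the 10 members.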
